A study of Mus musculus with 12 samples.

Results

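The effect of deleting Yap1 was read from 6 tumour libraries of male mice, all taken at end point and labelled MB, for medulloblastoma. The 3 libraries numbered 1, 2 and 3 have the genotype fSMO-M2;hGFAPcre and are called SG, and the 3 libraries numbered 7, 8 and 9 have the genotype fYap1;fSMO-M2;hGFAPcre and are called YSGr, where the last letter stands for rescued. Both groups therefore carry the activated Smoothened allele and the Cre driver, and the floxed Yap1 allele is the difference named in the genotypes. The labels give no age, litter, batch or animal number, so the p-values below measure the spread between these 6 samples. The same table holds 3 SG and 3 YSGr libraries of female mice, numbered 4 to 6 and 10 to 12. Of the 15672 genes in the table, 13861 had a log2 CPM (reads of the gene scaled to the size of its library, on a log2 scale) above 0 in at least 3 of the 6 male libraries and were compared, and 1811 did not.

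Yap1 is a transcriptional coactivator that the kinases of the Hippo pathway hold in the cytoplasm, and in the nucleus it acts through the TEAD DNA-binding factors. SMO-M2 is a mutant Smoothened that signals without Hedgehog ligand and gives rise to medulloblastoma from cerebellar granule neuron progenitors. The hGFAP promoter drives Cre in neural stem cells of the developing brain, so granule neuron progenitors, astrocytes, oligodendrocytes and several kinds of cerebellar neurons descend from cells that could have recombined both alleles, while immune and blood vessel cells of the tumour do not. In whole tumour RNA, fewer cells of a type and less RNA per cell cannot be told apart.

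In YSGr male tumours, members of the reactive astrocyte, antigen presentation, interferon, chemokine and macrophage lists rose, led by Lcn2, Tgm1, C3 and Cd74, and members of the matrix and Notch lists fell, as did Igf2bp1 and Yap1 itself. Of the 13861 genes, 325 passed an adjusted p of 0.05 (limma), which is 2.34% of those tested; 245 rose in YSGr (1.77%) and 80 fell (0.577%). The last 2 shares are the background for the list counts given below. The median log2 fold change was 1.83 among the genes that rose, -1.48 among those that fell and -0.01 over all genes tested. For 313 of the 325 genes the change exceeded 1 on the log2 scale, and for 120 it exceeded 2. The values of the 2 groups did not overlap for any of the 325, a condition that 4783 genes, or 34.5% of those tested, also met. At an unadjusted p under 0.05, 3073 genes differed. Of the 325 genes, 38 passed the filter on low values only through the YSGr libraries and 3 only through the SG libraries, so these had to differ.

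The targeted gene matched the genotype labels. Yap1, on chromosome 9, had a log2 CPM of 4.45, 4.29 and 4.42 in SG libraries 1, 2 and 3 and of 1.82, 1.72 and 0.73 in YSGr libraries 7, 8 and 9. Every YSGr library lay below every SG library. The log2 fold change was -2.96 (SE 0.32, adjusted p = 0.00844), and the 3 YSGr libraries together still held about 76 Yap1 reads against 586 in SG. The call held when any 1 of the 6 libraries was left out, with adjusted p of at most 0.0324. Of the 23 genes tested among Yap1, its paralogue Wwtr1, the Hippo kinases and the TEAD factors, 2 fell and none rose. The other one was Tead2, a DNA-binding partner of Yap1, at 8.18, 8.73 and 8.28 in SG and 7.48, 7.22 and 7.52 in YSGr (log2 fold change -0.99, SE 0.19, adjusted p = 0.0395); leaving out any library but 2 ended this call, with adjusted p up to 0.118. Of 22 tested genes starting within 5 Mb of Yap1, 2 rose, none fell, and the median log2 fold change was 0.29. These were Mmp3, a matrix metalloproteinase (log2 fold change 4.16, SE 0.57, adjusted p = 0.0152; 0.069 without library 7), which held 1, 1 and 0 reads in SG and 47, 20 and 100 in YSGr and so passed the filter only through YSGr, and Casp4, an inflammatory caspase (2.14, SE 0.31, adjusted p = 0.0178; up to 0.0776 without library 3 or 7).

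Libraries 2 and 8 stood apart from the other libraries of their groups, and both enter every comparison. Estimated reads per library ranged from 9005281 in library 8 to 9478629 in library 2, close to each other. The first principal component (55.3% of the variance) separated SG from YSGr, with libraries 2 and 8 at its ends. The second (20.2%) separated libraries 2 and 8 from the other 4. Library 2 differed by more than 1 on the log2 scale from both other SG libraries at 1007 genes (7.26%), 816 of them lower; library 8 did so at 859 genes (6.20%), 676 of them higher. In the remaining 4 libraries this held for 82 to 203 genes. The correlation of log2 CPM was 0.989 between libraries 1 and 3 but 0.956 and 0.955 for library 2 with each, and 0.979 between libraries 7 and 9 but 0.946 and 0.947 for library 8 with each. The Y-linked gene Ddx3y lay between log2 CPM 4.77 and 5.82 in the 6 libraries and at -2.24, the lowest value of the table, in the female ones, as the sex labels have it.

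Library 2 departed by transcript length. Its median log2 difference from libraries 1 and 3 was 0.56 in the quintile of genes with the shortest total exon length, 0.24, 0.00 and -0.22 in the next 3, and -0.55 in the quintile with the longest. Libraries 1 and 3, each set against a pair that holds library 2, reached 0.28, and no YSGr library exceeded 0.11 in either direction. Pdpr, at 5.66 and 5.50 in libraries 1 and 3, was at 2.15 in library 2, and Klf12, at 5.91 and 6.04, was at 2.78. Short genes such as those for ribosomal proteins were high in the same library: the 31 tested averaged log2 CPM 9.89 in library 2, 8.92 and 8.99 in libraries 1 and 3, and 8.23 to 8.70 in YSGr. The comparison carried the same slope, with a median log2 fold change of -0.24 in the shortest and 0.20 in the longest quintile. Without library 2 these were -0.07 and 0.01.

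In library 8, genes known as markers of several cell types stood apart. Nrgn, a postsynaptic protein of forebrain neurons, was at 6.38 there and at -0.49 and 0.82 in libraries 7 and 9, and Htr2c, a serotonin receptor, was at 5.87 against 1.97 and -0.46. Pcp2 and Car8, which mark Purkinje cells, went the other way: Pcp2 was at 3.26 against 6.88 and 6.36, and Car8 at 4.45 against 7.70 and 7.64. The 18 tested genes of the oligodendrocyte lineage averaged 7.69 in library 8, 6.46 and 6.30 in libraries 7 and 9, and 5.90 to 6.46 in SG. Their summed level in library 8 was 12249 CPM. Ttr, made by choroid plexus, was at 8.73 in library 7 but at -2.24 and -1.26 in libraries 8 and 9 and between 5.37 and 7.56 in SG, so that list varied among the YSGr libraries more than between the groups. The part of these differences in the results was measured by leaving the libraries out.

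**Figure D1:**
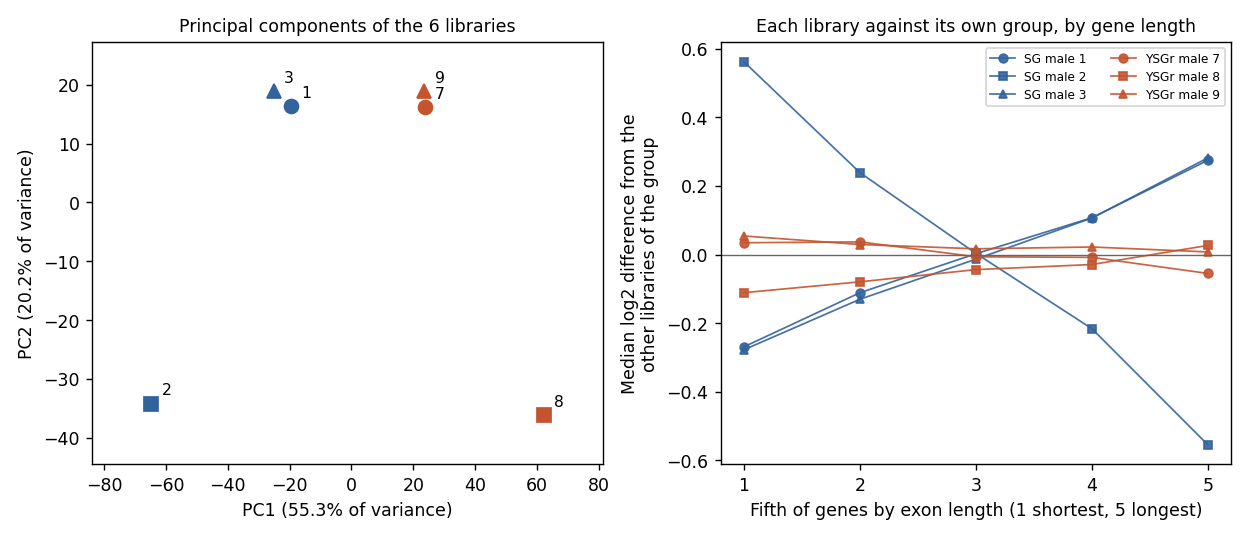
Left, scores of the 6 male libraries on the first 2 principal components of log2 CPM. Right, the median log2 difference of each library from the other 2 of its group in quintiles of genes by exon length; library 2 runs from 0.56 to -0.55 and libraries 1 and 3 reach 0.28.

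Leaving out single libraries moved the number of calls a great deal. Without library 2, 147 genes passed (1.06% of those tested; 119 rose and 28 fell), and without library 8, 221 passed (1.59%; 170 rose and 51 fell). Of the 325 genes, 93 passed in both of these fits as well. The counts were 185 without library 1, 75 without library 3, 35 without library 7 and 82 without library 9. Each of the 325 genes kept its direction in all 6 such fits. This had to be so, since the values of the 2 groups did not overlap for any of them. With libraries 2 and 8 both left out, 1293 genes passed (9.33%; 855 rose and 438 fell), 320 of the 325 among them. The median SD over genes was 0.28 in SG and 0.08 without library 2; it was 0.22 in YSGr and 0.14 without library 8. That 2-against-2 fit has the fewest samples, and its libraries were picked for their likeness within each group.

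**Figure D2:**
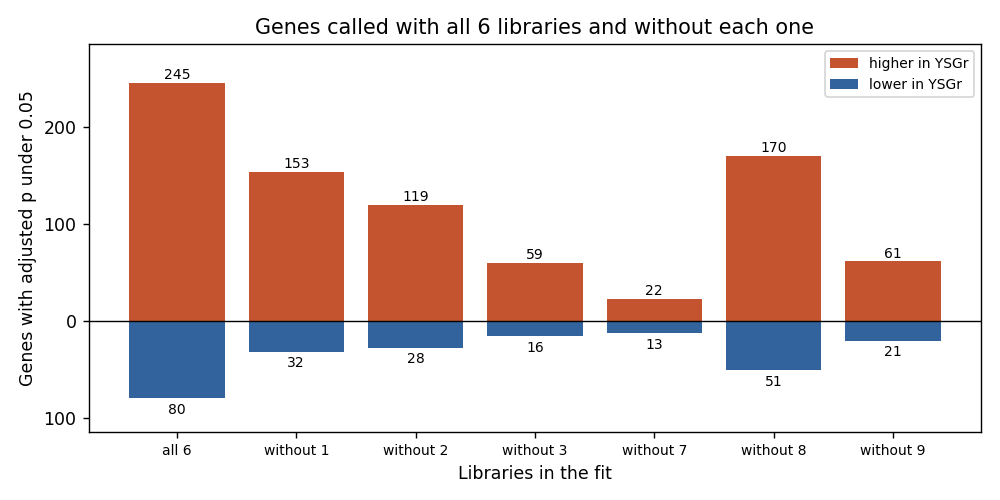
Number of genes with adjusted p under 0.05 that rose (upward bars) or fell (downward bars) in YSGr, with all 6 libraries and without each library. The total falls from 325 to 221 without library 8, 147 without library 2 and 35 without library 7.

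The calls of 26 genes, 19 that rose and 7 that fell, held in all 6 fits with a library left out. Those that rose included C3, Tgm1, Cd74, Steap4, Cxcl1, Cbx7, Spp1, Lgals3, Cp, Gpnmb, H2-Aa and Ccl2. Those that fell included Yap1, Loxl1, Eno1b, Col4a1, Angptl2 and Duxbl2; Eno1b and Duxbl2 have near-identical copies elsewhere in the genome, and their reads are uncertain.

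Among the named genes that rose, Lcn2, Tgm1 and C3 had the largest log2 fold changes. Lcn2, an iron-scavenging lipocalin released by reactive astrocytes and neutrophils, was at log2 CPM 0.53, 0.99 and -2.24 in SG and at 6.06, 6.24 and 5.70 in YSGr, or about 28 reads in the 3 SG libraries together and 1877 in the 3 YSGr libraries. All YSGr libraries were high, and the SG libraries ranged from 0 to 16 reads. The log2 fold change was 6.24 (SE 0.73, adjusted p = 0.00937; 0.051 without library 7). C3, the central complement component, was at 0.53, -0.39 and 0.34 in SG and at 4.91, 4.92 and 4.59 in YSGr (log2 fold change 4.64, SE 0.31, adjusted p = 0.00106). Tgm1, a transglutaminase that crosslinks proteins, was at 0.81, -0.02 and -0.66 in SG and at 5.51, 4.03 and 5.21 in YSGr (4.87, SE 0.48, adjusted p = 0.00674). Library 8 was the lowest of the YSGr group for Tgm1. Steap4, a metalloreductase, rose by 3.84 (SE 0.38, adjusted p = 0.00674), and Spp1, which encodes osteopontin, by 3.11 (SE 0.36, adjusted p = 0.00937). Cbx7, a Polycomb subunit, was at 0.97, 1.21 and 1.40 in SG and at 4.10, 4.69 and 4.61 in YSGr (3.28, SE 0.27, adjusted p = 0.00329). Shisa3 rose by 3.48 (SE 0.52, adjusted p = 0.0188), a call that ended without library 2, 3, 7 or 9, with adjusted p up to 0.0771.

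**Figure D3:**
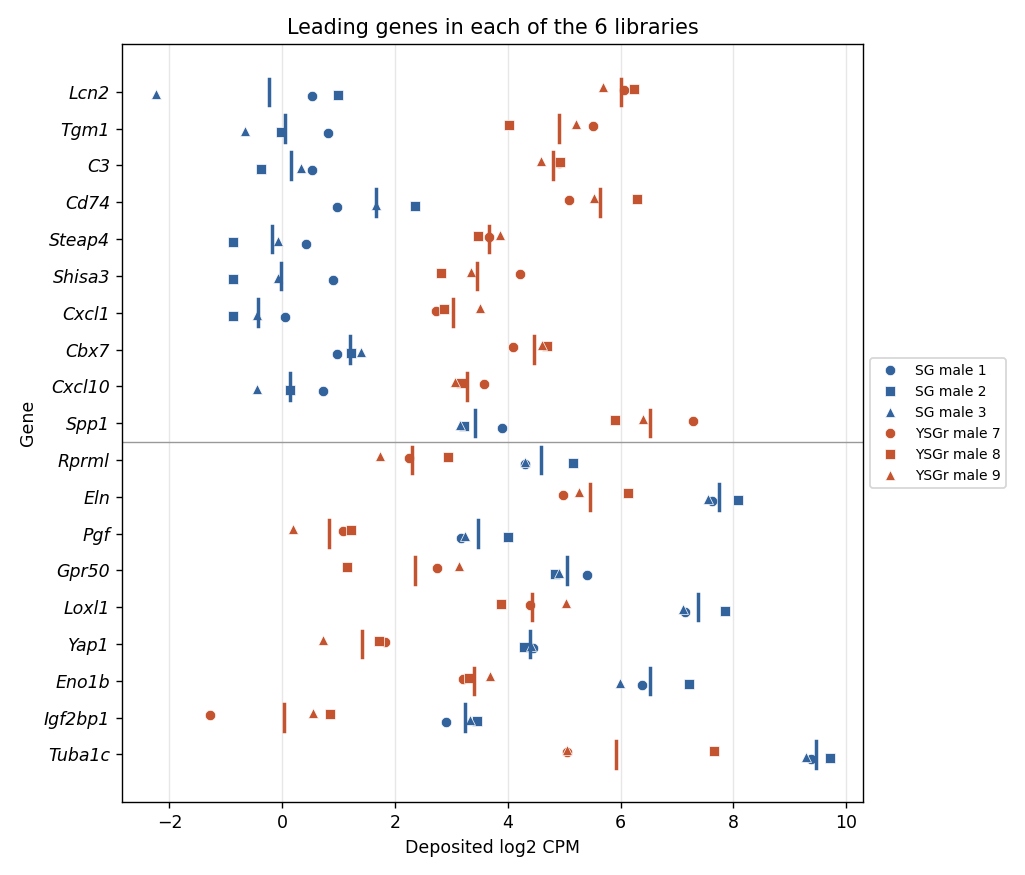
Deposited log2 CPM in each library of 10 genes that rose (above the line) and 9 that fell (below it). The 10 had the largest rises, and the 9 are among the largest falls, of genes called with a mean log2 CPM above 1. Gene models without a proper symbol were left out. Short bars are group means. No YSGr point lies among the SG points of the same gene, and library 8 is nearest to SG for Tuba1c, at 7.66.

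Steep falls outside the matrix list included those of Pgf, Igf2bp1, Gpr50, Rprml, Tuba1c and Eno1b. Pgf, placental growth factor, was at 3.18, 4.00 and 3.24 in SG and 1.08, 1.22 and 0.19 in YSGr (-2.64, SE 0.38, adjusted p = 0.0156; up to 0.06 without library 2 or 7). Igf2bp1, a fetal RNA-binding protein that binds Igf2 and Myc transcripts, was at 2.91, 3.46 and 3.34 in SG and -1.28, 0.85 and 0.54 in YSGr (-3.20, SE 0.54, adjusted p = 0.0277; up to 0.0879 without library 2, 3 or 9). Gpr50, an orphan relative of the melatonin receptors, fell by 2.70 (SE 0.47, adjusted p = 0.0291; up to 0.0828 without library 1, 2, 3 or 7), and Rprml by 2.29 (SE 0.36, adjusted p = 0.0231; up to 0.0857 without library 2, 3, 7 or 9). Tuba1c, an alpha tubulin, was at 9.38, 9.71 and 9.30 in SG and 5.05, 7.66 and 5.04 in YSGr (-3.54, SE 0.62, adjusted p = 0.0291; up to 0.101 without library 2, 3, 7 or 9). Library 8 held more Tuba1c than libraries 7 and 9. Eno1b fell by 3.12 (SE 0.31, adjusted p = 0.00674). Tuba1c and Eno1b closely resemble Tuba1b and Eno1, so how reads were split among the copies bears on both.

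Genes of the matrix were more often lower than higher. Of 26 tested genes of the extracellular matrix and elastic fibre, 6 fell and 1 rose, with a median log2 fold change of -0.31. Over all genes tested, 0.577% fell and 1.77% rose. Loxl1, which crosslinks elastin, was at 7.15, 7.85 and 7.10 in SG and 4.40, 3.87 and 5.03 in YSGr (-2.94, SE 0.32, adjusted p = 0.00844). Eln, elastin itself, was at 7.62, 8.09 and 7.56 in SG and 4.98, 6.14 and 5.26 in YSGr (-2.30, SE 0.30, adjusted p = 0.0132; up to 0.0548 without library 7 or 9). Both were lower in all 3 YSGr libraries than in any SG library. Col4a1 and Col4a2, the paired collagen chains of basement membranes, fell by 1.63 (SE 0.15, adjusted p = 0.00422) and 1.34 (SE 0.19, adjusted p = 0.0156; up to 0.0764 without library 3, 7 or 9). Col5a2, a fibrillar collagen chain, fell by 1.79 (SE 0.22, adjusted p = 0.00965; 0.051 without library 7), and Col18a1 by 0.90 (SE 0.16, adjusted p = 0.0291; up to 0.093 without any library but 2). The member that rose was Timp1, an inhibitor of metalloproteinases (2.60, SE 0.35, adjusted p = 0.0144; 0.0575 without library 7). Falling counts in this list ranged from 2 without library 7 to 7 without library 2. The 15 tested endothelial markers had a median of -0.22 with 1 gene higher, Vwf (1.24, adjusted p = 0.0348), and the 17 tested markers of pericytes, fibroblasts and meninges had a median of -0.13 with 1 higher, Dcn (1.26, adjusted p = 0.032); neither list had a call lower, and their part in the matrix result was not tested. The Vwf call ended without any 1 library and that of Dcn without any but 8.

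Canonical YAP targets were described by the same counts. Of 23 tested, 1 fell and none rose, where 0.577% of all genes tested fell, and a count of 1 sets the list apart in neither direction; the median log2 fold change was 0.06, a sign that turned negative under quantile normalization and without library 2 (-0.17). Ccn1 and Ccn2, secreted matricellular proteins, are the best known: Ccn1 was at 2.93, 2.38 and 2.28 in SG and 2.18, 2.19 and 0.64 in YSGr (-0.86, SE 0.45, adjusted p = 0.293), and Ccn2 at 2.34, 1.07 and 1.45 against 2.52, 2.46 and 2.59 (0.90, SE 0.36, adjusted p = 0.192). The 2 genes thus had opposite signs, and neither passed. The gene that fell was Ajuba, a LIM protein that binds the Hippo kinases, at 3.18, 3.59 and 3.53 in SG and 1.86, 1.46 and 2.25 in YSGr (-1.58, SE 0.29, adjusted p = 0.0333). Its call ended without any 1 library, with adjusted p up to 0.112. The Ajuba promoter is shown because it holds the TEAD letters CATTCC (on either strand). These stood in 11.8% of the 10815 promoters matched among genes tested. The share was 10.8% for genes that rose (20 of 185) and 19.2% for genes that fell (10 of 52). The difference between these shares was not tested, and a match is no measure of binding. The windows run from 250 bases before to 50 after the gene start, from RefSeq on GRCm38.p6, and 237 of the 325 called genes had one. The window of Ajuba lies at chr14:54577612-54577911 (minus strand), and capitals mark the TEAD letters and 1 match to the interferon letters used further on.
Ajuba: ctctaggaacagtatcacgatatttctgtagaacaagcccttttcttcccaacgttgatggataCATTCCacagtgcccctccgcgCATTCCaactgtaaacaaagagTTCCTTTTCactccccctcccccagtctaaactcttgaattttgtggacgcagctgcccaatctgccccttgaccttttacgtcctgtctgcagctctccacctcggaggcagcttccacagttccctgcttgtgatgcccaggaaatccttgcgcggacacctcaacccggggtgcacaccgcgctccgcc

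Hedgehog pathway genes did not pass with all 6 libraries. Of 20 tested, 3 had a positive log2 fold change, where 49.0% of all genes tested did. Shh passed the filter only through the YSGr libraries, so it had to be 1 of the 3. The median was -0.49, and -0.31 without library 8. Gli1, the transcription factor most directly induced by the pathway, was at 8.35, 8.39 and 8.14 in SG and 7.71, 7.17 and 7.39 in YSGr, with no overlap (-0.87, SE 0.18, adjusted p = 0.0505). Ptch1, the receptor and a target, was at 9.56, 8.30 and 9.64 against 9.20, 8.48 and 8.93 (-0.30, SE 0.36, adjusted p = 0.637). Library 2 held Ptch1 below every other library. Without it, Hhip, an inhibitor that binds the ligand, fell by 1.32 (SE 0.19, adjusted p = 0.0398) and Gli3, chiefly a repressor, by 1.28 (SE 0.19, adjusted p = 0.0402). The letters GACCACCCA, the Gli consensus on either strand, stood in 20 of 10815 promoters (0.185%) and in none of the 237 matched for called genes. They are so rare that their absence there says nothing about Gli.

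Progenitor markers were expressed in every library of both groups. Atoh1, the defining factor of granule neuron progenitors, was at 7.50, 7.61 and 7.72 in SG and 7.14, 6.73 and 6.88 in YSGr (-0.69, SE 0.16, adjusted p = 0.0688). Of the 16 progenitor genes tested, 1 fell, the matrix gene Mfap4, and none rose; its call (-1.93, SE 0.36, adjusted p = 0.0343) held in 1 of the 6 fits with a library left out. All 30 tested cell cycle genes had negative log2 fold changes, where 49.0% of all genes tested had positive ones. The median of these 30 was -0.49, and -0.29 without library 8, and none passed. Their summed level was lowest in library 8, at 3333 CPM, against 4845 and 4674 in libraries 7 and 9 and 5650 to 6305 in SG. Mki67, a marker of cycling cells, was at 9.48, 9.00 and 9.65 in SG and 9.19, 8.92 and 9.20 in YSGr (adjusted p = 0.444).

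Named targets of Notch signalling fell. Nrarp, a feedback inhibitor, was at 5.04, 5.25 and 5.54 in SG and 3.09, 3.49 and 4.01 in YSGr (-1.74, SE 0.27, adjusted p = 0.0206). Hes5 and Hes1, the repressors through which Notch keeps progenitors undifferentiated, fell by 1.74 (SE 0.32, adjusted p = 0.0332) and 1.59 (SE 0.29, adjusted p = 0.0333). These 3 were the calls among 17 Notch pathway genes tested, with none higher and a median of -0.29. No member passed without library 2, 3 or 7, with adjusted p up to 0.111 for the 3 genes, and the 2-against-2 fit called 5 lower. The Hes1 call ended without any 1 library and that of Hes5 without any but library 1. Sox2, a stem cell factor, was at 5.02, 5.05 and 5.20 in SG and 4.61, 4.97 and 4.68 in YSGr (-0.33, SE 0.18, adjusted p = 0.302). Fabp7, a radial glial fatty acid binding protein, was the 1 gene called among 20 markers of neural stem cells and astrocytes (-1.02, SE 0.21, adjusted p = 0.0495), and its call ended without any 1 library.

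Reactive astrocyte genes held more calls by number than any other list examined. Of 28 tested, 13 rose and none fell, where 1.77% of all genes tested rose, and the median log2 fold change was 1.42. By share of the genes tested, the neutrophil list (4 of 6) and the class II list (4 of 8) held more. Besides Lcn2, C3, Tgm1, Steap4 and Timp1 these included Cp, ceruloplasmin, at 4.74, 4.36 and 4.57 in SG and 7.34, 6.98 and 7.16 in YSGr (2.60, SE 0.18, adjusted p = 0.00106), Serpina3n, a protease inhibitor (2.08, SE 0.26, adjusted p = 0.0101) and Ptx3, a pentraxin (2.82, SE 0.33, adjusted p = 0.00937); without library 7 the last 2 did not pass (adjusted p up to 0.0569). Chil1, a chitinase-like protein of reactive astrocytes that is not on the list and was singled out after its values were seen, rose by 2.51 (SE 0.22, adjusted p = 0.00414). Gfap, the intermediate filament of astrocytes, had a log2 fold change of 1.23 that did not pass (adjusted p = 0.075). The count was 11 without library 2, 13 without library 8 and 4 without library 7. C3, Tgm1, Cxcl10, Cd14, Srgn and Gbp2 are also made by immune cells, and the share of each source was not tested.

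Several genes of antigen presentation rose. Cd74, the invariant chain that chaperones class II molecules, was at 0.97, 2.35 and 1.66 in SG and 5.08, 6.29 and 5.53 in YSGr (3.97, SE 0.41, adjusted p = 0.00714). H2-Aa, H2-Ab1 and H2-Eb1, the class II chains themselves, rose by 3.01 (SE 0.37, adjusted p = 0.0101), 2.83 (SE 0.38, adjusted p = 0.0137) and 3.46 (SE 0.51, adjusted p = 0.0178). These were 4 of 8 class II genes tested, with none lower and a median of 2.39. The H2-Ab1 call ended without library 9 and that of H2-Eb1 without library 7 or 9 (adjusted p up to 0.0648). H2-Eb1 passed the filter only through the YSGr libraries, as did H2-Q7 of class I, which was not called. For class I, 2 of 11 rose, H2-K1, a classical heavy chain (1.08, SE 0.20, adjusted p = 0.0355), and Nlrc5, the class I transactivator (2.25, SE 0.43, adjusted p = 0.0367); without library 1, 3, 7, 8 or 9 neither passed, with adjusted p up to 0.124, and Nlrc5, which passed the filter only through YSGr, did not pass the test without library 2 either. Cd274, the gene of the checkpoint ligand PD-L1, was at 0.05, -1.21 and 0.34 in SG and 1.39, 2.01 and 1.19 in YSGr, without overlap (1.80, SE 0.49, adjusted p = 0.0946). None of the 10 tested checkpoint genes passed.

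Some interferon-induced genes rose and none fell. All 18 tested genes of the type I response had positive log2 fold changes, with a median of 1.11, and 5 rose. All 20 of the interferon gamma response were positive, with a median of 1.33, and 5 rose. Over all genes tested, 49.0% were positive. Isg15, Oas1a and Xaf1 of the first list and Gbp4 and Ifi47 of the second passed the filter only through the YSGr libraries and had to be positive, so the counts and medians are no support for the direction. Ifit3 and Ifit1, which block translation of viral RNA, rose by 2.34 (SE 0.34, adjusted p = 0.0177) and 2.60 (SE 0.42, adjusted p = 0.0235). Cxcl10, which draws activated lymphocytes, was at 0.72, 0.14 and -0.44 in SG and 3.58, 3.17 and 3.07 in YSGr (3.13, SE 0.37, adjusted p = 0.00937; 0.051 without library 7). Oas1a, which senses double-stranded RNA, held about 4 reads in SG and 57 in YSGr (2.64, SE 0.49, adjusted p = 0.0343). Gbp2, an interferon-induced GTPase, rose by 2.01 (SE 0.33, adjusted p = 0.0263). No type I gene passed without library 3 or 7, and 1 did without library 2 and 5 without library 8; no interferon gamma gene passed without library 7. Adjusted p reached 0.117 in these fits for the genes named. Leaving out library 8 also brought in 2 genes of the same kind that it held low: Ifi203, at 3.63 and 4.16 in libraries 7 and 9 and 1.16 in library 8 (4.13 without it, adjusted p = 0.0066), and Gbp6, at 3.21 and 3.13 against -0.01 (3.13 without it, adjusted p = 0.0184). Reads of Ifi203 may be shared with neighbouring genes of its cluster.

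The promoters of Cxcl10, Ifit1, Ifit3 and Oas1a are shown because these genes moved together and each window holds the core letters of the interferon-stimulated response element, GAAANNGAA on either strand. The core stood in 6.84% of the 10815 promoters, in 13% of those of genes that rose (24 of 185), in 5.77% of those that fell (3 of 52) and in 10 of 16 windows of type I response genes. Among the 5 type I response genes that rose, 3 had a window with the core, and Oasl2 was without it. A match describes the letters and is no measure of binding. The windows lie at chr5:92348840-92349139 (minus strand) for Cxcl10, chr19:34640639-34640938 (plus strand) for Ifit1, chr19:34583279-34583578 (plus strand) for Ifit3 and chr5:120907476-120907775 (minus strand) for Oas1a on GRCm38.p6, read from 5′ to 3′ along the gene, with the core in capitals.
Cxcl10: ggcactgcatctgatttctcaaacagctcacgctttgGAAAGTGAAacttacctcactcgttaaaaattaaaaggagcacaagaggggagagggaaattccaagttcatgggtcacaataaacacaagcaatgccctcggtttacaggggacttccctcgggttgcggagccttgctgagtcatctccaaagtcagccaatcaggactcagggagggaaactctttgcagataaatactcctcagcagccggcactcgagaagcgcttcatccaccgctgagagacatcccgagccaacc
Ifit1: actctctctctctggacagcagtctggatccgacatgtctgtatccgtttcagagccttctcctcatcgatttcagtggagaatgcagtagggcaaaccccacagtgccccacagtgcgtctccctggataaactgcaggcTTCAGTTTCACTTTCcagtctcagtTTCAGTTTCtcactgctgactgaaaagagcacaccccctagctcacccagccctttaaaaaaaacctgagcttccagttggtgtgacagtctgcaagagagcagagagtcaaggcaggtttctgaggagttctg
Ifit3: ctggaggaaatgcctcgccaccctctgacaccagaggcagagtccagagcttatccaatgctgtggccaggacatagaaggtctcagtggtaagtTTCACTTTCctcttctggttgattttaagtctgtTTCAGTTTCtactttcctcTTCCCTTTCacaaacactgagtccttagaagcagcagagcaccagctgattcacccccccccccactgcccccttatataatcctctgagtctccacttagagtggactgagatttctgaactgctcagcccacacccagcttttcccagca
Oas1a: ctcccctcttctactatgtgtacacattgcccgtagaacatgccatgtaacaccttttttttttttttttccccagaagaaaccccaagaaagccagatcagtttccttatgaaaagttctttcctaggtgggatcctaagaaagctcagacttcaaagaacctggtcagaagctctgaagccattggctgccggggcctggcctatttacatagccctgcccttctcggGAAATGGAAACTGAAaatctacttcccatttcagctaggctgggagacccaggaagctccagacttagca

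Several chemokines that attract myeloid cells rose. Cxcl1, a ligand of the neutrophil receptor Cxcr2, was at 0.05, -0.88 and -0.44 in SG and 2.73, 2.87 and 3.51 in YSGr (3.46, SE 0.38, adjusted p = 0.00844). Ccl2, a ligand of the monocyte receptor Ccr2, was at -0.46, -0.19 and 0.07 against 2.21, 2.49 and 2.90 (2.73, SE 0.34, adjusted p = 0.0109). Il1b, a cytokine of activated myeloid cells, held about 4 reads in SG and 84 in YSGr (3.09, SE 0.43, adjusted p = 0.0152; up to 0.0624 without library 3, 7 or 9). In all, 7 of 17 tested chemokines and cytokines rose, none fell, and the median was 1.70. Of the 17, 5 passed the filter only through the YSGr libraries, among them 3 of the 7 calls (Il1b, Ccl7 and Ccl8). Those genes had to be positive, so the count and the median were partly set by the filter and are no support for the direction. The count was 5 without library 2, 7 without library 8 and 2 without library 7. Of 16 complement genes tested, 4 rose (C3, C1ra, Cd59a and C1s1), none fell, and the median was 1.05. Cfb, which was not called, passed the filter only through the YSGr libraries and had to be positive. C1ra and C1s1, proteases of the classical pathway, rose by 2.49 (SE 0.34, adjusted p = 0.0152) and 2.04 (SE 0.40, adjusted p = 0.0393). Cd59a, which protects cells from the membrane attack complex, rose by 1.49 (SE 0.26, adjusted p = 0.0311). Without library 7 or 9 the complement count was 1, and 2 without library 2, 3 or 8. The C1ra call ended without library 7 or 9, and those of Cd59a and C1s1 without any 1 library.

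**Figure D4:**
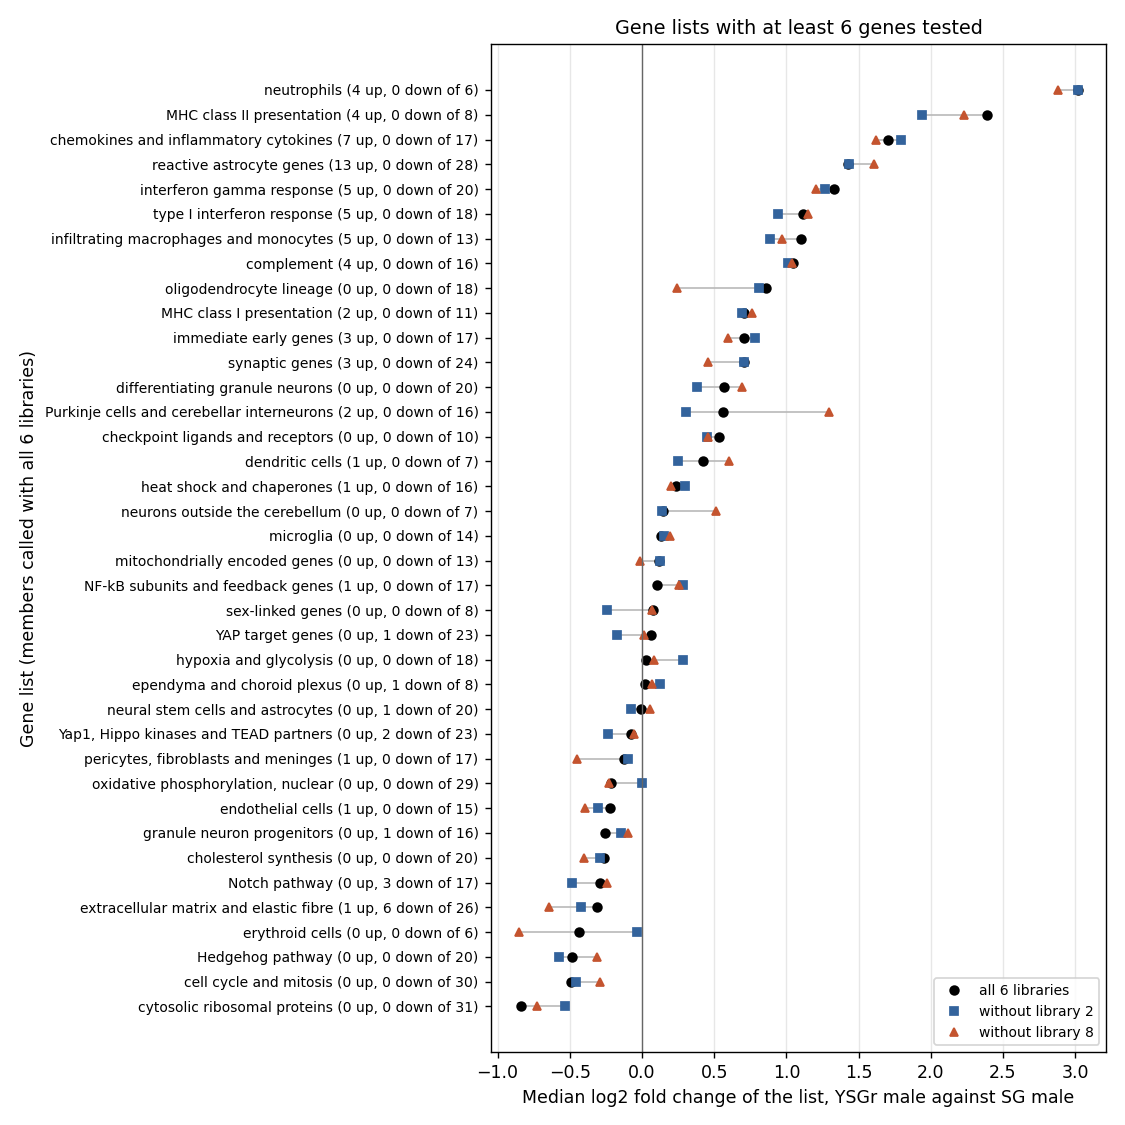
Median log2 fold change of each list with at least 6 genes tested, with all 6 libraries (circles), without library 2 (squares) and without library 8 (triangles). Neutrophil, class II and chemokine lists lie highest, at 3.02, 2.39 and 1.70, and the oligodendrocyte and Purkinje lists move most with library 8. In the 3 highest lists, 5 of 6, 1 of 8 and 5 of 17 tested genes passed the filter only through the YSGr libraries.

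Several genes of the list for infiltrating macrophages and monocytes rose. Of 13 macrophage and monocyte genes tested, 5 rose and none fell, with a median of 1.10. Ccr2, 1 of the 5, passed the filter only through the YSGr libraries. Gpnmb, a glycoprotein of lipid-laden macrophages, was at 5.11, 4.62 and 4.76 in SG and 7.46, 7.02 and 7.06 in YSGr (2.35, SE 0.20, adjusted p = 0.00371). Lgals3, galectin 3, rose by 2.95 (SE 0.31, adjusted p = 0.00761), and Lyz2, lysozyme, by 1.78 (SE 0.22, adjusted p = 0.00959; 0.0513 without library 7). The summed level of the list was 318 to 343 CPM in SG and 748 to 1106 CPM in YSGr. None of the 14 microglial genes passed, and their median was 0.13; Tmem119, a marker of resident microglia, was at 2.81, 2.73 and 2.53 against 3.11, 3.72 and 3.25 (adjusted p = 0.176). Ptprc, the pan-leukocyte antigen, was at 2.48, 1.14 and 2.21 against 3.54, 3.72 and 3.51 (1.65, SE 0.36, adjusted p = 0.0531). Whether the 2 lists differ in their change was not tested, nor was it tested whether these RNAs came from infiltrating or resident cells.

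Neutrophil genes were near the detection limit in SG. S100a9, a calcium-binding alarmin, held 2 reads in the 3 SG libraries and 136 in the 3 YSGr libraries (4.01, SE 0.49, adjusted p = 0.00959; 0.051 without library 7), and S100a8, its partner, 3 and 69 (3.01, SE 0.59, adjusted p = 0.0407). Cxcr2 held 2 reads against 59 (3.03, SE 0.48, adjusted p = 0.0232) and Mmp9, a gelatinase, 12 against 150 (3.32, SE 0.58, adjusted p = 0.0291). These were 4 of 6 tested genes, and 5 of the 6 passed the filter only through the YSGr libraries, so neither the count nor the median of 3.02 supports the direction. None of the 4 passed in the fit without library 7, with adjusted p up to 0.112 over the 6 fits. The S100a8 call ended without any 1 library. That of Cxcr2 also ended without library 1, 3 or 9, and that of Mmp9 also without library 8 or 9. Of 12 T cell markers in the table, 3 passed the filter (Cd4, Foxp3 and Il7r) and none of these was called; the defining ones were at or near 0. Cd3e, part of the T cell receptor complex, held 2 reads in SG and 3 in YSGr, Cd3d held 0 reads in SG, which allows up to 3, and 3 in YSGr, and Gzmb of cytotoxic cells held 0 and 3. Other lymphocyte genes had more reads in YSGr: Nkg7, a granule protein of cytotoxic cells, held 0 in each SG library and 6, 3 and 2 in YSGr, Cd8a, a coreceptor, 2 in all against 10, and Il7r, a cytokine receptor also found on other cells, 0, 1 and 2 against 8, 19 and 8 (2.12, SE 0.53, adjusted p = 0.0771). Il7r passed the filter only through YSGr, and Nkg7 and Cd8a did not pass it and were not tested. Flt3, a receptor of dendritic cell precursors, was the 1 call among 7 dendritic cell genes (1.93, SE 0.36, adjusted p = 0.0344), which ended without library 2, 3, 7, 8 or 9.

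**Figure D5:**
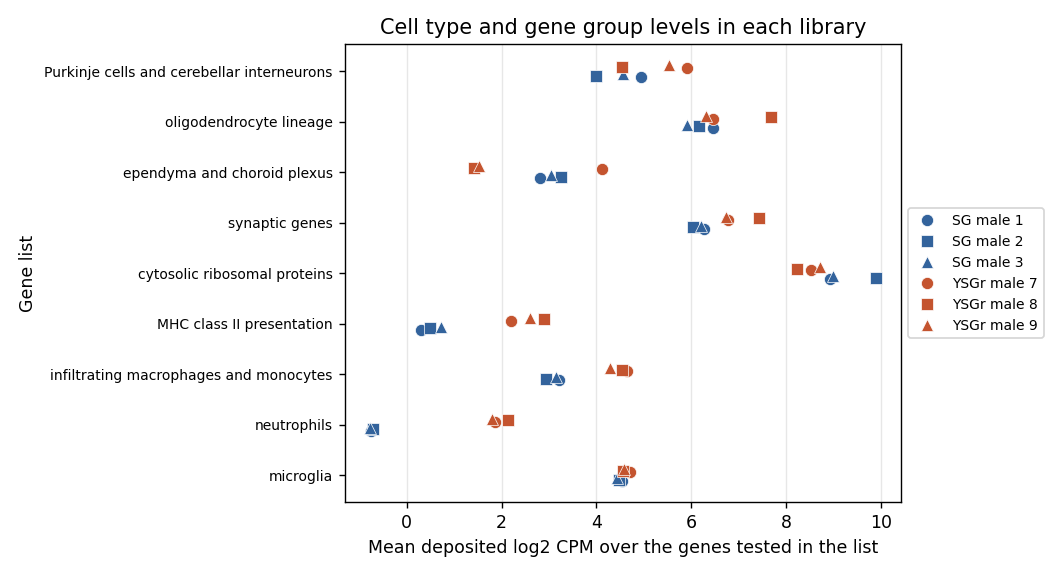
Mean deposited log2 CPM of the tested genes of 9 lists in each library, blue for SG and orange for YSGr. Class II, macrophage and neutrophil lists separate the groups widely, and microglial genes stay between 4.42 and 4.70 in all 6 libraries. Of the 6 tested neutrophil genes, 5 passed the filter only through the YSGr libraries. The separation of the neutrophil list was thus largely set by the filter. Among YSGr, library 8 is high for the oligodendrocyte and synaptic lists and low for the joint list of Purkinje and interneuron genes. Gad1 and Slc32a1 of that joint list had their most reads in library 8.

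Some neuronal genes rose, and several of their values moved with library 8. Of 24 synaptic genes tested, 3 rose and none fell, with a median of 0.71, where 1.77% of all genes tested rose. Snap25, part of the machinery of vesicle fusion, was at 7.41, 7.31 and 7.43 in SG and 8.55, 9.53 and 8.58 in YSGr (1.50, SE 0.26, adjusted p = 0.0291), and library 8 was the highest. That call ended without library 1, 2, 3, 7 or 9, with adjusted p up to 0.0823, but held without library 8. Scn2b, a sodium channel beta subunit singled out because its call held in all 6 leave-one-out fits, was at 3.83, 3.18 and 3.73 in SG and 5.68, 6.37 and 6.03 in YSGr (2.45, SE 0.25, adjusted p = 0.00714). Slc32a1 and Gad1, the transporter and the synthesizing enzyme of inhibitory neurons, rose by 2.13 (SE 0.37, adjusted p = 0.0295) and 2.02 (SE 0.37, adjusted p = 0.0343), 2 of 16 markers of Purkinje cells and interneurons; the Slc32a1 call ended without library 2, 3, 7 or 9 and the Gad1 call also without library 8. Library 8 held the most reads of both among YSGr, about 1677 of Gad1 against 1152 and 880 in libraries 7 and 9. For Slc32a1 it held about 974 against 471 and 440. The median of the Purkinje and interneuron list was 0.56, 1.30 without library 8 and 0.31 without library 2, in which no member passed. Cbln3, a granule neuron protein, was at 6.05, 5.11 and 6.07 in SG, 8.55 and 8.21 in libraries 7 and 9 and 5.90 in library 8; it passed without library 8 (2.64, SE 0.31, adjusted p = 0.0175) but not with it (adjusted p = 0.153). Chn2, which also marks granule neurons, had an adjusted p of 0.0197 without library 8 and 0.0524 with it. Of 20 genes of differentiating granule neurons, 5 rose without library 8 and none with it. Oligodendrocyte genes had a median of 0.86 with no call, and 0.24 without library 8.

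Further genes passed without library 8 and not with it. Slit1, an axon guidance ligand, was at 2.95, 2.38 and 3.42 in SG, -0.97 and 0.64 in libraries 7 and 9 and 4.78 in library 8, and fell by 3.08 without it (SE 0.53, adjusted p = 0.0433). Grb10, an imprinted growth inhibitor, was at 6.14, 5.31 and 6.17 in SG, 3.52 and 3.61 in libraries 7 and 9 and 5.67 in library 8 (-2.31 without it, SE 0.29, adjusted p = 0.0192). Igf2, the imprinted growth factor, was at 7.44, 7.73 and 7.72 against 6.21, 6.70 and 4.88, and fell by 2.08 without library 8 (SE 0.36, adjusted p = 0.0437). Gabrb2, a GABA receptor subunit, was at 3.21 and 3.16 in libraries 1 and 3, -0.61 in library 2 and 4.63 to 4.92 in YSGr, and rose by 1.59 without library 2 (SE 0.16, adjusted p = 0.0217) where the fit with it gave 2.86 (adjusted p = 0.127). Nid1, a basement membrane linker, was at 6.73 and 6.67, 5.59 in library 2 and 4.87 to 5.22 in YSGr, and fell by 1.64 without library 2 (SE 0.14, adjusted p = 0.0127).

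Immediate early genes and mRNA of the stress response were also examined. Junb, Egr3 and Fos rose, by 1.24 (SE 0.21, adjusted p = 0.0291), 2.43 (SE 0.47, adjusted p = 0.0393) and 1.43 (SE 0.28, adjusted p = 0.0406), 3 of 17 immediate early genes tested; none fell and the median was 0.71. Egr3 passed the filter only through the YSGr libraries, with about 5, 2 and 5 reads in SG and 32, 49 and 17 in YSGr. Of 16 heat shock genes, 1 rose, Hspa1a, which shares reads with its near-identical copy (2.89, SE 0.60, adjusted p = 0.0482); it was at 0.81 in library 7 and 2.92 and 2.75 in libraries 8 and 9, and it too passed the filter only through YSGr. None of these 4 calls held in more than 1 of the 6 leave-one-out fits. No gene passed among 31 cytosolic ribosomal proteins (median -0.84, and -0.54 without library 2), 13 mitochondrially encoded genes (0.12), 29 nuclear genes of oxidative phosphorylation (-0.21), 18 of hypoxia and glycolysis (0.03) or 20 of cholesterol synthesis (-0.26).

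The female libraries gave a measurement the male ones had no part in. Fitted alone on the same 13861 genes, libraries 10, 11 and 12 against 4, 5 and 6 called 751 genes (5.42%). Of the 325 genes called in males, 311 (95.7%) had the same direction in females, as did 60.0% of all genes tested; for the genes that rose this was 233 of 245 and for those that fell 78 of 80. In all, 99 genes passed in both sexes in the same direction, 30.5% of the male and 13.2% of the female calls. The median log2 fold change among the 325, taken without sign, was 1.73 in males. The female median was 0.94, taken along the male direction, with genes of the opposite direction counted as negative. Since the genes were chosen for their male values, a smaller female median is built into that pair. Lcn2 rose by 5.10 in females (SE 0.44, adjusted p = 0.00318), Cd74 by 3.69 (SE 0.50, adjusted p = 0.0107) and Loxl1 fell by 2.10 (SE 0.13, adjusted p = 0.000957). Cbx7 had a female log2 fold change of 1.42 that did not pass (SE 0.65, adjusted p = 0.266). A test of the difference between the 2 effects over all 12 libraries passed for 1 of 14147 genes (0.00707%), with 1634 genes at an unadjusted p under 0.05. That gene was Hmga1b, an architectural chromatin protein whose sequence nearly matches Hmga1. It was at 6.58, 6.53 and 6.60 in female SG and 1.46, 1.64 and 1.19 in female YSGr, but at 6.28, 7.08 and 6.29 in male SG and 6.13, 5.85 and 5.97 in male YSGr (difference of the effects 4.58, SE 0.29, adjusted p = 1.22e-05). The count of such genes was 115 without YSGr female library 11, 2 without library 7 or 12, and 1 without any other library. For other genes a difference between the sexes was not shown.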

How the data were processed

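RNA of mouse tumours, 12 libraries in all, was sequenced on a BGISEQ-500, per the labels' protocols. The submitters' processing notes name Trimmomatic 0.33, Bowtie2, RSEM 1.2.12, Picard 1.95, edgeR 3.30.3 and the mm10 build. The authors deposited 1 table of log2 CPM values for all 12 libraries; no source used here gives its normalization or prior count. Steps in the low values gave estimated reads per library (92.8% to 94.2% of values were whole within 0.02 reads in the 6 libraries), which served for depth and for low genes only and cover counting error only.

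Samples were grouped by the genotype and sex in the labels. Genes above a log2 CPM of 0 in 3 or more of the 6 male libraries were fitted with limma 3.58.1 (R 4.3.3; eBayes with a mean-variance trend) on those 6 alone, two-sided, with Benjamini-Hochberg adjustment over all 13861 genes and a threshold of 0.05. The difference between the sexes was an interaction contrast over 12 libraries. The female libraries were also fitted alone, a fit added after seeing the data. A fold change is on the deposited log2 scale, which understates low genes. The test was checked on simulated libraries, none of which stood apart as libraries 2 and 8 do, so the check does not cover such departures. No exact permutation test of 3 against 3 libraries could reach a p below 0.1. Some items are not reported here. Genes named are otherwise the 10 with the largest change in each direction among calls with a mean log2 CPM above 1, up to 4 per gene list, those called only without library 2 or 8, those furthest apart in these libraries, and the ones singled out in the text. Alternatives tried were other filters, scalings, spread models, library weights and leaving libraries out. Gene lists and named genes were chosen with earlier results of these data known. Positions come from GENCODE M21 on GRCm38, the same assembly as mm10.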

Additional observations from a re-analysis of the deposited data

Results flagged for a closer look

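The effect of the Yap1 genotype on Hmga1b differed between the sexes by 4.58 on the log2 scale (limma interaction over 12 libraries, SE 0.29, adjusted p = 1.22e-05). It was the 1 gene of 14147 for which that test passed, and it passed in each fit with a library left out. Its log2 fold change was -5.14 in females and -0.56 in males, with libraries 10, 11 and 12 all between 1.19 and 1.64 and the other 9 all between 5.85 and 7.08. Hmga1b nearly matches Hmga1 in sequence, so reads may have been split between them, and whether the copy carried this difference was not tested.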

How the results depend on the processing

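With all 6 male libraries 325 genes passed, 245 higher and 80 lower. Leaving out 1 library gave 35 to 221 genes, 22 to 170 higher and 13 to 51 lower; the lowest of each came without library 7 and the highest without library 8. Without libraries 2 and 8 the counts were 1293, 855 and 438. With no filter on low values they were 94, 74 and 20, with library quality weights 2022, 1253 and 769, and with a spread shared over all 12 libraries 1109, 623 and 486. The cause of these shifts was not tested. Quantile normalization, equal medians, log2(CPM + 1), a stricter filter, no mean-variance trend and a robust fit gave 293 to 355 genes. For the difference between the sexes, 1 gene passed, 1 higher and 0 lower, and library weights gave 675, 512 and 163; leaving out 1 library gave 1 to 115 genes, 1 to 114 higher and 0 to 1 lower. Of 167 genes examined singly, the 70 called kept their direction under every alternative run. Where libraries were left out this had to be so, since the values of the 2 groups did not overlap for called genes. Of the 97 not called, 21 changed sign under at least 1 alternative, 20 of them when a single library was left out. Pcp2, not called, had a log2 fold change of -0.17 with all 6 libraries and passed at 1.09 without libraries 2 and 8. No paired analysis was possible because the groups share no replicate number. A floor of 3 reads limits genes near 0, and 3 libraries per group limit all of them.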

Other observations

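Some of the most stable differences were in genes outside the lists, singled out because their calls held in every fit with a library left out. Angptl2, a secreted angiopoietin-like protein, was at log2 CPM 7.29, 7.34 and 7.26 in SG and 6.02, 5.53 and 5.85 in YSGr (log2 fold change -1.50, SE 0.17, adjusted p = 0.00937). Lynx1, which binds nicotinic acetylcholine receptors in mature neurons, was at 5.48, 5.33 and 5.29 in SG and 7.03, 7.89 and 7.06 in YSGr (1.96, SE 0.24, adjusted p = 0.0101). Rnf112, a ubiquitin ligase of the nervous system, rose by 1.93 (SE 0.21, adjusted p = 0.00844), and Trnp1, a nuclear protein of neural progenitors, by 1.79 (SE 0.20, adjusted p = 0.00916). Tnfaip2, induced by tumour necrosis factor, rose by 2.82 (SE 0.31, adjusted p = 0.00844).

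Genes that mark the hindbrain segments varied within both groups. Hoxb2 was at 1.85, 5.22 and 5.00 in SG libraries 1, 2 and 3 and at -1.68, 5.07 and 2.79 in YSGr libraries 7, 8 and 9. Hoxb3 was at 2.95, 5.16 and 5.52 in SG and at -0.71, 6.64 and 4.28 in YSGr. Neither was called (adjusted p = 0.465 and 0.682), and the spread between libraries of 1 genotype was larger than the difference between the groups.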
